A study of Mus musculus with 6 samples.

Results

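Collagen chain genes were taken as every gene whose single symbol in the array annotation is made of Col, a type number, the letter a and a chain number. The annotation held 42 such genes, read by 82 probe sets, among 18193 genes with 1 symbol. They comprised 11 fibrillar collagens, 8 basement membrane collagens and 23 others. The probe set of highest mean log2 signal represented each gene. A threshold of 100 signal units had to be met on 3 or more of the 6 arrays, and 28 of the 42 met it and were tested together with all other genes that did so, 12518 in all. Each of the 28 reached 100 in both groups, but 3 arrays of 1 group were enough to pass. Among the genes called below, *Col11a1* reached it in only 1 control gland, and *Col1a1* and *Col27a1* in only 1 tumor.

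The arrays, 1 per sample, held RNA of 3 mammary tumors with acinar (gland-like) histology that arose in *K14-cre*; *Apc* CKO/+ females, and of 3 age-matched glands of mice without the *cre* transgene. CKO is a conditional allele of *Apc*, a tumor suppressor of Wnt signaling, and the keratin 14 promoter drives Cre in skin and in progenitor cells of the mammary epithelium. All 3 tumors carried the recombined *Apc* allele and a truncating mutation in the other one, and the tumors arose on a mixed C57BL/6, 129/S and FVB background. In the paper the crosses gave CKO/+ and CKO/CKO offspring with or without *cre*. Which of these *Apc* genotypes the *cre*-negative mice of the arrays had was not stated, nor was their strain. The labels call the samples of a group biological replicates without saying that each came from its own mouse, so the p-values measure the spread between these samples, which may be partly that within a mouse. A tumor and a whole gland with its fat pad also differ in the cells they hold, and in such bulk samples fewer cells of a type and less RNA per cell cannot be told apart.

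Collagens are proteins of the extracellular matrix in which several alpha chains, each the product of its own gene, wind into a rope-like helix. Fibrillar collagens build the fibers of connective tissue and are made mainly by fibroblasts, type VI collagen forms beaded filaments beside them, and FACIT collagens (fibril-associated collagens with interrupted helices) sit on the surface of fibrils. Type IV collagen forms the network of basement membranes, the thin sheets that in the mammary gland separate epithelium from stroma and also surround vessels, fat cells and muscle fibers.

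Among the collagens tested, most chains of stromal fibers and filaments were lower in the acinar tumors. The chains of the type IV network did not pass the test, and *Col11a1* and *Col9a1* were higher. Of the 28 genes tested, 11 were lower in tumors and 2 higher, and 15 were not called at an adjusted p under 0.05 from limma (Benjamini-Hochberg over all 12518 genes, 2-sided, no fold limit). Of all genes tested 16.8% were lower and 16.3% were higher. The median log2 difference, tumor minus control, was −0.87 over the 28 collagens and 0.07 over all genes. Every tumor lay below every control gland for 11 collagens, where 23.1% of all genes did so, and above every control gland for 4, where 27.1% of all genes did so. By class, 7 of 8 fibrillar collagens tested were lower and 1 was higher (median −2.88), 3 of 4 type VI chains were lower (median −3.01), and 1 of 7 basement membrane collagens was lower (median −0.24). Of the 6 FACIT collagens tested 1 was higher and none was lower (median 0.47). After quantile normalization 11 collagens were lower and 3 higher, where 16.1% of all genes were lower and 18.8% higher. With equal array medians 11 were lower and 4 higher, where 13.4% of all genes were lower and 24.0% higher.

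**Figure D1:**
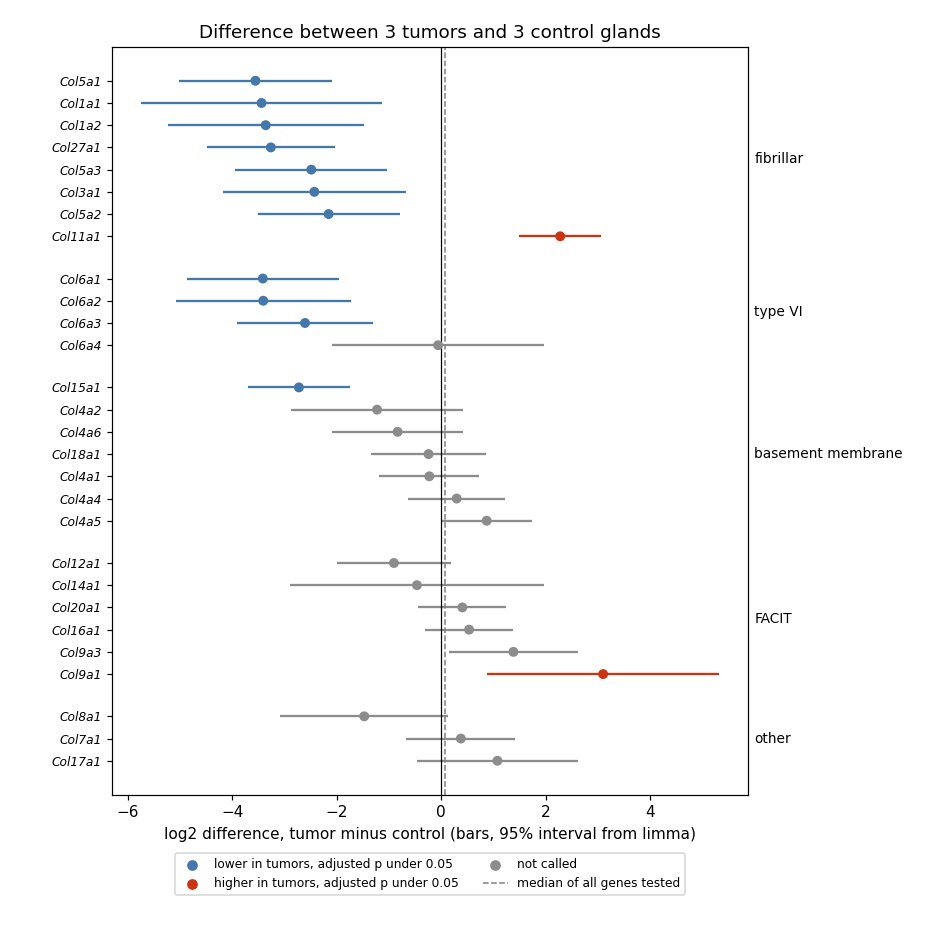
Log2 difference between 3 tumors and 3 control glands for the 28 collagen genes tested, by class, with 95% intervals from limma; colors mark genes that passed an adjusted p of 0.05 and the dashed line is the median of all 12518 genes, 0.07. Of the 8 fibrillar genes 7 lie to the left of 0, as do *Col6a1*, *Col6a2*, *Col6a3* and *Col15a1*, while *Col11a1* and *Col9a1* lie to the right.

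A pair of arrays stood apart within its group. Tumor 1 had the highest of the tumor signals for 24 of the 28 collagens (85.7%), against 36.5% of all genes, and for 11 of the 11 lower ones. Control gland 2 had the highest of the control signals for 14 of the 28, against 34.1% of all genes, and for 10 of the 11 lower ones. The 6 skeletal muscle markers, such as *Acta1* and *Myh4*, also differed between samples of a group. Their signals summed to 5813.5, 142744 and 53092.5 in the control glands and to 31593.6, 1422.9 and 478.1 in the tumors, so that control gland 2 and tumor 1 were again the highest of their groups. None of the 6 passed the test, their median log2 difference was −3.49, and their part in the collagen differences was not tested. Epithelial marker signals summed to 23366.9, 10280.1 and 28399.1 in the control glands and to 76216.1, 91198.4 and 98671.2 in the tumors. For that list control gland 2 and tumor 1 were the lowest of their groups, and its part was not tested either. Without tumor 1, 14 collagens were lower and 1 was higher (background 16.6% and 12.7% of all genes). The count of lower collagens was 7 of 28 without control gland 2, 5 of 27 without control gland 3 and 6 of 28 without tumor 2, where 11.3%, 9.67% and 13.2% of all genes were lower. The count of higher collagens was 1 without control gland 1, and 1 when any single tumor was left out, where 10.4% to 12.7% of all genes were higher.

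Type I collagen, the main protein of connective tissue fibers, is built of the products of *Col1a1* and *Col1a2*. *Col1a2* measured 5173.6, 8384.9 and 6957.9 in the control glands, against 2565.1, 485.9 and 222.9 in the tumors. Every tumor lay below every control gland, and tumor 1 stood well above the other tumors. The log2 difference was −3.36 (standard error 0.80, adjusted p = 0.0174 from limma), that is, 10.3-fold lower. *Col1a1* gave 889.6, 2336.6 and 1720.4 in the control glands, against 786.0, 70.9 and 17.6 in the tumors, where tumor 1 lay just under the lowest control. Its log2 difference was −3.44 (standard error 0.99, adjusted p = 0.0331 from limma) with the signal of tumor 3 set to the floor of 50. Without tumor 1 the values were −4.35 for *Col1a2* (adjusted p = 0.00141 from limma) and −4.68 for *Col1a1* (adjusted p = 0.0015 from limma).

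The promoter of *Col1a2* is shown because CCAAT boxes, to which the factor NF-Y binds, are textbook elements of type I collagen promoters. In the RefSeq window from 250 bases before to 50 bases after its start, at chr6:4505368-4505667 (GRCm38.p6, plus strand), the letters CCAAT, read on either strand, stand in capitals.
Col1a2: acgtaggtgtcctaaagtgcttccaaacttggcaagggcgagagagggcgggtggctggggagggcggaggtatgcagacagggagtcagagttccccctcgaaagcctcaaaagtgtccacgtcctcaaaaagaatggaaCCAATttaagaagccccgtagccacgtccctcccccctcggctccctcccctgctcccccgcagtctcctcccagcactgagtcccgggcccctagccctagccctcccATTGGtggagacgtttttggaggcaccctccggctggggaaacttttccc
CCAAT occurred 2 times in this window. Of the 33 collagen genes with a window in the RefSeq table, 13 held it (39.39%), against 41.06% of all 27025 genes, and of the 9 lower collagens with a window it was in those of *Col1a2* and *Col5a3*. A match of letters is a description and not a bound site.

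*Col3a1*, the chain of type III collagen in fine reticular fibers, measured 10425.7, 19636.9 and 17888.5 in the control glands, against 7457.6, 3847.7 and 815.1 in the tumors. Its log2 difference was −2.43 (standard error 0.75, adjusted p = 0.0424 from limma). The tumors lay below all control glands but spread over a wide range. Type V collagen is a minor partner inside type I fibrils that helps to set their width, and its 3 chain genes all fell. *Col5a1* gave 1204.5, 2653.0 and 1849.5 in the control glands, against 423.5, 82.2 and 103.6 in the tumors, a log2 difference of −3.56 (standard error 0.62, adjusted p = 0.00544 from limma).

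*Col5a2* measured 2158.0, 5876.6 and 4061.4 in the control glands, against 1924.8, 647.5 and 464.3 in the tumors (log2 difference −2.16, standard error 0.58, adjusted p = 0.0269 from limma). *Col5a3* had 442.4, 2288.8 and 1127.7 against 330.0, 125.1 and 156.3 (log2 difference −2.49, standard error 0.62, adjusted p = 0.0206 from limma). For both genes tumor 1 came close to control gland 1, the lowest of the controls. *Col27a1*, a fibrillar collagen found mostly in cartilage and in some epithelia, gave 921.9, 606.9 and 758.7 in the control glands, against 191.5, 27.6 and 30.1 in the tumors. Here control gland 2 was the lowest control, whereas it was the highest for the other 10 lower collagens. The log2 difference was −3.26 (standard error 0.53, adjusted p = 0.00395 from limma) with tumors 2 and 3 set to the floor of 50.

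How firmly these fibrillar calls stood differed between the genes. All 7 were called without tumor 1, and the median of the fibrillar class was then −3.52. *Col27a1* was called without any single array, and each of the 7 lower genes had a negative difference without any single array. Of these 7 genes 3 were called without control gland 2, 1 without control gland 3, 2 without tumor 2 and 4 without tumor 3, where 11.3%, 9.67%, 13.2% and 13.8% of all genes were lower. *Col5a1* missed the threshold without control gland 3 alone (−1.87, adjusted p = 0.052 from limma). When any single control gland was left out another of its probe sets represented *Col5a1*, and without control gland 2 its difference was −1.58. *Col3a1* missed it without control gland 1 (adjusted p = 0.0603 from limma), without control gland 2, without control gland 3 and without tumor 2. Among all 17 alternatives the highest adjusted p from limma was 0.154 for *Col3a1* and 0.135 for *Col1a1*.

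*Col11a1* moved the other way. Its product joins type XI collagen, which starts fibrils in cartilage and also occurs in the stroma of several carcinomas. Signals were 130.7, 84.3 and 74.7 in the control glands, against 594.6, 512.5 and 307.1 in the tumors, so every tumor was above every control gland. The log2 difference was 2.28 (standard error 0.33, adjusted p = 0.00269 from limma), which is 4.84-fold, and it was called without any single array. Its partner chain *Col11a2* did not pass the filter, with a highest signal of 120.0 in tumor 2. The window of *Col11a1*, at chr3:114030290-114030589 (GRCm38.p6, plus strand, RefSeq), is shown as that of the one fibrillar gene that rose, again with CCAAT on either strand in capitals.
Col11a1: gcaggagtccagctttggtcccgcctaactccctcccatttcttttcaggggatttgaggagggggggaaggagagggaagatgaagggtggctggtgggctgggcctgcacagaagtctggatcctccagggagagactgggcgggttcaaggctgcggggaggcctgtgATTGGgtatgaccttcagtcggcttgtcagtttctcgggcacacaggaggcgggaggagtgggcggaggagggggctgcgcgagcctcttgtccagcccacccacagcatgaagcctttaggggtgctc
The same letters thus stood in windows of genes that fell and of this gene, which rose.

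**Figure D2:**
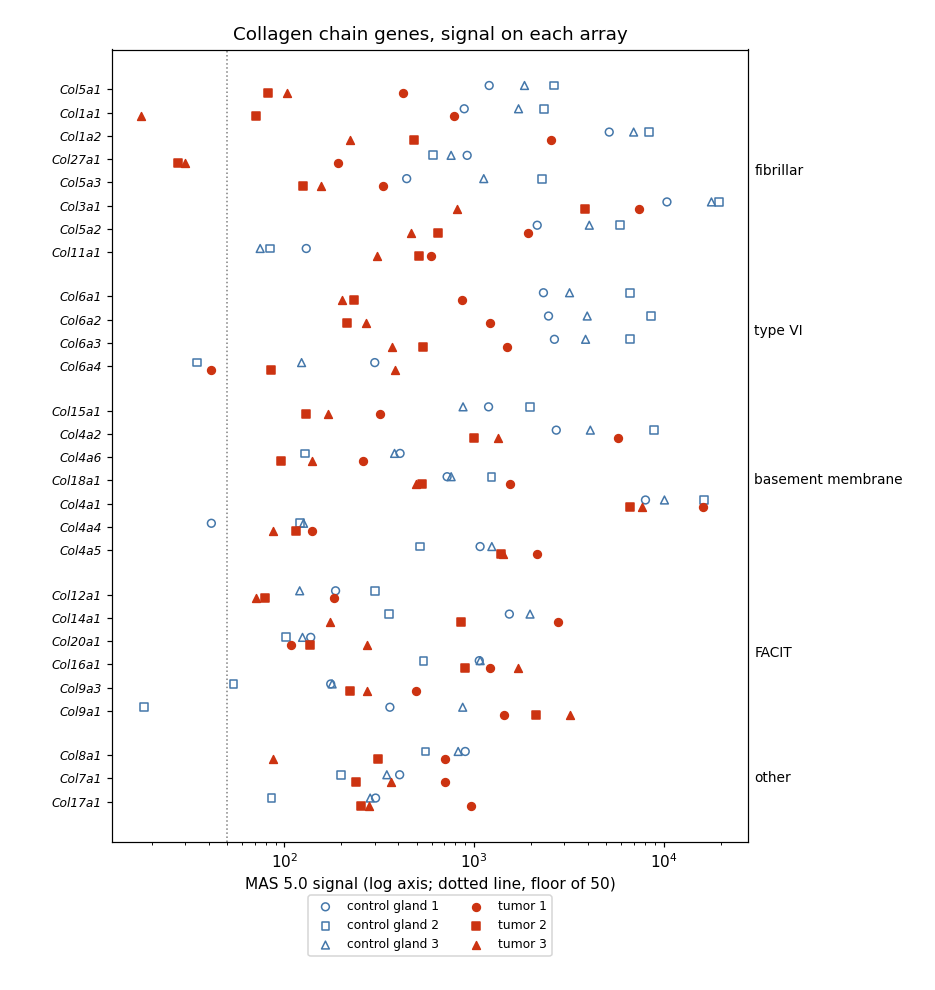
MAS 5.0 signal of each of the 28 collagen genes tested on each array (log axis), by class; open blue symbols are control glands, filled red symbols are tumors, and circle, square and triangle are samples 1, 2 and 3. For *Col1a2* the 3 tumors sit between 222.9 and 2565.1, all left of the control glands, and for *Col4a1* the groups overlap.

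Type VI collagen showed the same direction in its 3 classical chains, which assemble together. *Col6a1* measured 2327.6, 6653.0 and 3195.3 in the control glands, against 865.3, 233.1 and 201.3 in the tumors. *Col6a2* had 2475.8, 8608.3 and 3959.6 against 1213.5, 214.8 and 270.1. *Col6a3* had 2659.6, 6656.6 and 3882.2 against 1502.6, 541.8 and 371.1. For each of them control gland 2 was the highest control and tumor 1 the highest tumor, and the groups did not overlap. The log2 differences were −3.42 for *Col6a1* (standard error 0.62, adjusted p = 0.00628 from limma), −3.41 for *Col6a2* (standard error 0.72, adjusted p = 0.0109 from limma) and −2.61 for *Col6a3* (standard error 0.56, adjusted p = 0.0115 from limma). All 3 were called without any single array, and without tumor 1 the differences were −4.08, −4.19 and −3.19. *Col6a4*, a later chain of the family, gave 300.3, 34.8 and 123.5 in the control glands, against 40.9, 84.8 and 384.8 in the tumors, and its log2 difference of −0.06 (adjusted p = 0.964 from limma) changed sign under 7 alternatives. *Col6a5* did not pass the filter, with a highest signal of 49.0.

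In basement membranes, the major type IV network holds the products of *Col4a1* and *Col4a2*. *Col4a1* measured 8032.7, 16369.6 and 10113.8 in the control glands, against 16084.8, 6623.8 and 7736.1 in the tumors. Tumor 1 lay inside the range of the controls and the other tumors lay below it. The log2 difference was −0.23 with a 95% interval from −1.19 to 0.73 (adjusted p = 0.697 from limma). *Col4a2* had 2719.9, 8906.3 and 4113.1 against 5755.2, 1006.3 and 1333.1, a log2 difference of −1.23 with a 95% interval from −2.88 to 0.42 (adjusted p = 0.218 from limma). Without tumor 1, *Col4a2* was lower (−2.00, adjusted p = 0.0289 from limma) and *Col4a1* did not pass (−0.62, adjusted p = 0.222 from limma). The difference of *Col4a1* was 0.06 without control gland 2, 0.02 without tumor 2 and 0.01 when all arrays were given equal medians.

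*Col4a1* and *Col4a2* lie head to head on chromosome 8, and their start sites are 21 bases apart in RefSeq, so the windows around both starts share 78 bases. The window of *Col4a2*, at chr8:11312555-11312854 (GRCm38.p6, plus strand, RefSeq), is shown because this pair is read from a shared promoter in opposite directions. Capitals mark the 78 bases that the window of *Col4a1*, on the other strand, also holds.
Col4a2: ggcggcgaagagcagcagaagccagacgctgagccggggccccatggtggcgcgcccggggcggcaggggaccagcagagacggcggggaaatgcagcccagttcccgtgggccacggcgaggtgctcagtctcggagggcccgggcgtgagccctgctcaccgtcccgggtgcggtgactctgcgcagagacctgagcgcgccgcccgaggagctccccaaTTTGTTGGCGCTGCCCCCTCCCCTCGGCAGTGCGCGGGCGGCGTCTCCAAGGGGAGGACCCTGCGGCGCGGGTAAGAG
The log2 ratio of *Col4a1* to *Col4a2* within an array, read here as a shift between groups because its level depends on the probe sets, was 1.00 higher in tumors (SD 0.67 in tumors and 0.35 in control glands, n = 3 each). An exact permutation test gave p = 0.2 for it (2-sided, smallest p possible 0.1). With the further probe set of *Col4a1* that passed the filter, an alternative chosen after the data were seen, the shift was 0.31.

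The remaining type IV chains make the networks of more specialized membranes. *Col4a5* measured 1078.6, 520.8 and 1243.7 in the control glands, against 2151.9, 1383.7 and 1429.3 in the tumors. Every tumor was above every control gland, but the gene did not pass (log2 difference 0.87, adjusted p = 0.111 from limma). Its neighbor *Col4a6*, whose start lies 1343 bases away on chromosome X in the opposite direction, had 408.3, 128.3 and 381.8 against 258.8, 96.5 and 140.5 (log2 difference −0.84, adjusted p = 0.265 from limma). Within an array the log2 ratio of *Col4a5* to *Col4a6* was 1.71 higher in tumors (SD 0.40 in tumors and 0.31 in control glands), with no overlap between groups. The exact permutation test gave p = 0.1, the smallest it allows, and p = 0.2 when adjusted over the 8 ratios compared below. *Col4a4* lay near the filter, with signals from 41.3 to 126.5 in control glands and from 87.0 to 140.3 in tumors. *Col4a3*, the neighbor of *Col4a4* on chromosome 1, did not pass the filter and was at most 78.1. None of the 5 type IV chains tested was called.

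*Col15a1* was the exception among basement membrane collagens. Type XV collagen bridges basement membranes to the fibers beneath, mainly around vessels and muscle. Signals were 1195.5, 1981.4 and 877.0 in the control glands, against 320.1, 131.0 and 170.8 in the tumors. The groups were far apart, with a log2 difference of −2.73 (standard error 0.42, adjusted p = 0.00328 from limma), and the gene was called without any single array and in all 17 alternatives. *Col18a1*, the related chain whose end is cut off as endostatin, had 722.8, 1238.6 and 759.1 against 1544.6, 533.9 and 495.7 (log2 difference −0.24, adjusted p = 0.718 from limma). The class as a whole rested on single arrays. Its median of −0.24 was 0.00279 without control gland 2 and −0.77 without tumor 1, and the number of its lower genes was 2 without tumor 1.

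Pairs of chains, of the same class or of different classes, were compared within arrays in 8 ratios in all. Each had an exact permutation test of 3 arrays against 3 that cannot give a p below 0.1. *Col4a1* over *Col6a1* was 3.19 higher in tumors on the log2 scale, *Col4a1* over *Col15a1* 2.50 higher and *Col4a1* over *Col3a1* 2.20 higher. In each of these 3 every tumor was above every control gland (exact permutation p = 0.1, adjusted over the 8 ratios p = 0.2). Each shift is the difference of *Col4a1* minus that of the other gene, both given above, so it is no separate evidence. With the further probe set of *Col4a1* the same shifts were 2.50, 1.81 and 1.51. Among chains that assemble with each other, *Col1a1* over *Col1a2* differed by −0.08 (exact permutation p = 0.8) and *Col6a1* over *Col6a2* by −0.01 (exact permutation p = 1). *Col3a1* over *Col5a2*, which are neighbors on chromosome 1, differed by −0.27 (exact permutation p = 0.8). Such ratios show unequal change and not that either gene was constant.

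Of the FACIT collagens, the chains of type IX collagen, which coats type II fibrils in cartilage, had the largest differences. *Col9a1* measured 360.8, 18.3 and 873.4 in the control glands, against 1446.4, 2122.7 and 3220.5 in the tumors. Every tumor was above every control gland, and the controls themselves ranged widely. The log2 difference was 3.10 (standard error 0.95, adjusted p = 0.0414 from limma) with control gland 2 set to the floor of 50. The gene was not called without control gland 1 (adjusted p = 0.0667 from limma) or with any 1 of the 3 tumors left out (highest adjusted p = 0.116 from limma), and the difference was 1.93 without control gland 2 (adjusted p = 0.034 from limma). *Col9a3* had 175.9, 54.0 and 179.0 against 493.4, 221.2 and 274.5, again with no overlap, and did not pass (log2 difference 1.38, adjusted p = 0.0809 from limma). *Col9a2* failed the filter, with 62.7, 4.7 and 84.6 against 145.7, 114.9 and 91.3.

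Cartilage markers gave a reading beside *Col9a1* and *Col11a1*. None of 7 (*Acan*, *Matn1*, *Matn3*, *Comp*, *Hapln1*, *Chad* and *Cnmd*) passed the filter, and their highest signal on any array was 134.8. *Matn1*, *Matn3*, *Chad* and *Cnmd* lay below 50 in all tumors, and 4 of the 7 lay below 50 in all control glands. *Col2a1*, the chain of the main cartilage fiber, was at most 55.2. *Sox10*, a transcription factor of neural crest cells also made in mammary epithelium, was higher in tumors (log2 difference 2.42, adjusted p = 0.0156 from limma). It is on the list of Schwann cell markers, whose sums ran from 1340.9 to 2323.4 in control glands and from 2967.7 to 5974.3 in tumors. *Cdh19* and *Mbp* of that list had differences of 0.35 and −0.15 and did not pass. Which cells made *Col9a1* and *Col11a1* was not tested.

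The other FACIT collagens did not pass. *Col14a1*, which binds type I fibrils, measured 1538.6, 357.4 and 1977.8 in the control glands, against 2761.3, 850.4 and 175.4 in the tumors (log2 difference −0.47, 95% interval −2.89 to 1.96, adjusted p = 0.758 from limma). *Col12a1*, found in dense connective tissue, had a log2 difference of −0.91 (adjusted p = 0.171 from limma) and of −1.34 without tumor 1 (adjusted p = 0.0499 from limma). *Col16a1* and *Col20a1* had differences of 0.53 and 0.40. Among chains of other kinds, *Col8a1*, a short-chain collagen of vessel walls, had 900.6, 556.6 and 826.5 against 701.7, 313.0 and 87.7. Its log2 difference was −1.48 (adjusted p = 0.137 from limma) and, without tumor 1, −2.17 (adjusted p = 0.0295 from limma).

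A pair of collagens that anchor epithelia to the tissue beneath did not pass. *Col17a1*, the transmembrane collagen of hemidesmosomes in basal epithelial cells, measured 303.3, 85.7 and 284.0 in the control glands, against 962.2, 254.2 and 281.4 in the tumors (log2 difference 1.07, 95% interval −0.46 to 2.61, adjusted p = 0.246 from limma). *Col7a1*, the chain of anchoring fibrils, had a log2 difference of 0.37 (95% interval −0.67 to 1.42, adjusted p = 0.55 from limma). For both genes tumor 1 was the highest sample.

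The 14 collagens that failed the filter reached at most 205.9 on any array, and 6 of them reached 100 on none. *Col13a1*, a transmembrane collagen, had that highest value in control gland 3. *Col25a1*, another transmembrane collagen, gave 47.1, 52.8 and 80.3 in the control glands, against 202.6, 134.4 and 74.1 in the tumors. *Col23a1* had 164.4, 78.8 and 120.9 against 75.1, 63.9 and 74.2. *Col11a2*, *Col19a1*, *Col22a1* and *Col8a2* reached 100 on 1 array each, while *Col10a1*, *Col24a1*, *Col26a1*, *Col2a1*, *Col4a3* and *Col6a5* never did. No difference is given for these genes.

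Beside the chains themselves stand the genes that handle collagen. A list of 45 genes that modify, export, cut, cross-link or bind collagen had 34 tested members, of which 9 were lower and 4 were higher, where 16.8% of all genes were lower and 16.3% higher, with a median log2 difference of −0.58. Cross-linking and processing genes had the lowest medians of its 5 lists, −1.84 and −1.96. *Loxl1* and *Lox*, the oxidases that cross-link fibers outside the cell, fell by 4.09 (adjusted p = 0.00258 from limma) and by 3.38 (adjusted p = 0.0183 from limma) on the log2 scale, whereas *Loxl3* and *Loxl4* had differences of −0.30 and 0.43 and did not pass. *Pcolce* and *Pcolce2*, which enhance removal of the carboxyl end of procollagen, fell by 2.46 and 2.19, and *Bmp1*, the protease that removes it, fell by 1.73 (adjusted p = 0.0499 from limma). *Adamts3*, a protease for the amino end, rose by 2.02 (adjusted p = 0.0125 from limma).

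Of 14 genes of collagen hydroxylation and glycosylation 2 were lower and 2 higher (median −0.27), near the shares of all genes. *P4ha2*, a catalytic subunit of prolyl 4-hydroxylase, fell by 1.90 and the lysyl hydroxylase *Plod2* by 1.32, while *P4hb*, the subunit that is also a general disulfide isomerase, rose by 1.27 and *Ppib*, a prolyl isomerase of the secretory pathway, by 1.39. *P3h2* and *P3h4* were furthest from passing, at −0.13 and 0.14. Of 5 chaperones and export genes 1 was higher, *Creb3l1*, a membrane-bound transcription factor of secretory cells (1.28, adjusted p = 0.0326 from limma). *Fkbp14* and *Sec23a* had −0.69 and −0.64 and did not pass. Of 7 receptors 2 were lower. *Ddr2*, the discoidin receptor of mesenchymal cells for fibrillar collagen, fell by 3.99 (adjusted p = 0.000663 from limma) and *Mrc2*, which takes up collagen for breakdown, by 2.24, while *Itga10* and *Itgb1* had −0.12 and −0.55 and did not pass.

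Most markers of fibroblasts, the main makers of fibrillar collagens, were also lower in tumors, and other cell types are given beside them. Of 9 fibroblast markers 7 were lower (median −3.35), and *Dcn*, a small proteoglycan that binds collagen fibrils, averaged 20894 ± 3567 in control glands against 2533 ± 1677 in tumors (SD, n = 3 each). The summed fibroblast signal ran from 49364.7 to 51161.6 in control glands and from 1738.6 to 6912.3 in tumors. All 6 adipocyte markers tested were lower (median −6.66, sums from 117102 to 157853 against 1392.4 to 10960.8). Of 8 endothelial markers 6 were lower (median −2.00, sums from 6084.8 to 7736 against 1034.4 to 2511.4), and of 6 macrophage markers 3 were lower (median −1.46, sums from 18458.1 to 31197.4 against 5872.7 to 10271.2). Of 8 markers of pericytes and smooth muscle 3 were lower (*Pdgfrb*, *Cspg4* and *Abcc9*) and 2 were higher (*Acta2* and *Cnn1*), with a median of −0.60. Their sums ran from 19670.7 to 29427.3 against 22648.5 to 30041.3, with *Acta2* alone averaging 10292 in control glands and 17675 in tumors. The paper stains its protein, smooth muscle actin, as a marker of basal myoepithelial cells, so this list does not read pericytes alone. Of 7 epithelial markers 6 were higher (median 2.24, sums from 10280.1 to 28399.1 against 76216.1 to 98671.2). None of these lists had a gene below 50 in all tumors. The part of these cells in the collagen differences was not tested.

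Array by array, fibroblast markers and fibrillar collagens were ordered differently. Relative to the mean of the control arrays, the median of the 8 fibrillar genes was −1.22, −3.42 and −4.02 in tumors 1, 2 and 3, while that of the fibroblast markers was −3.14, −2.90 and −4.44. The 4 type VI genes gave −1.65, −3.45 and −3.74. Basement membrane collagens gave 0.55, −0.73 and −0.83, and endothelial markers −1.29, −2.07 and −2.42. In tumors 1 and 3 the fibrillar and type VI medians were thus less far below the controls than the fibroblast median, and in tumor 2 they were further below. Among the control glands, the skeletal muscle markers lay at −2.72, 2.31 and 0.62 and the fibrillar genes at −0.58, 0.45 and 0.08.

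**Figure D3:**
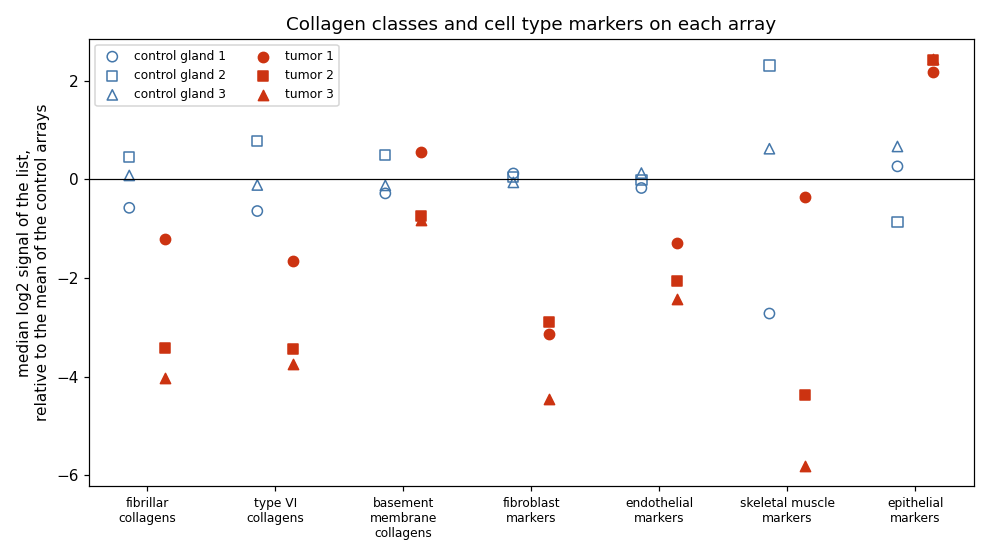
Median log2 signal of each gene list on each array, relative to the mean of the 3 control arrays, for 3 collagen classes and 4 lists of cell type markers; open blue symbols are control glands and filled red symbols are tumors. Fibrillar collagens lie at −1.22, −3.42 and −4.02 in tumors 1, 2 and 3, fibroblast markers between −2.90 and −4.44, and skeletal muscle markers spread from −2.72 to 2.31 within the control glands.

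A second reading of the same genes came from their other probe sets. Of the 28 collagens 12 had 1 probe set that passed and 16 had several, with 17 further probe sets in all. In a fit over 22492 probe sets, each of the 17 had a difference of the same sign as the one used. Both further probe sets of *Col5a1* were lower, at −1.80 and −1.94, and so was that of *Col27a1*, at −1.18. That of *Col1a1* had −1.77 and did not pass (adjusted p = 0.0747 from limma), nor did that of *Col3a1* at −2.41 (adjusted p = 0.0635 from limma). For type IX, the further probe sets of *Col9a1* (1.81, adjusted p = 0.0345 from limma) and of *Col9a3* (2.27, adjusted p = 0.00699 from limma) were both higher. The further probe set of *Col4a1* had −0.92 (adjusted p = 0.316 from limma), closer to *Col4a2* than the one used. Probe sets of a gene share its RNA sample and are not replicates.

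**Figure D4:**
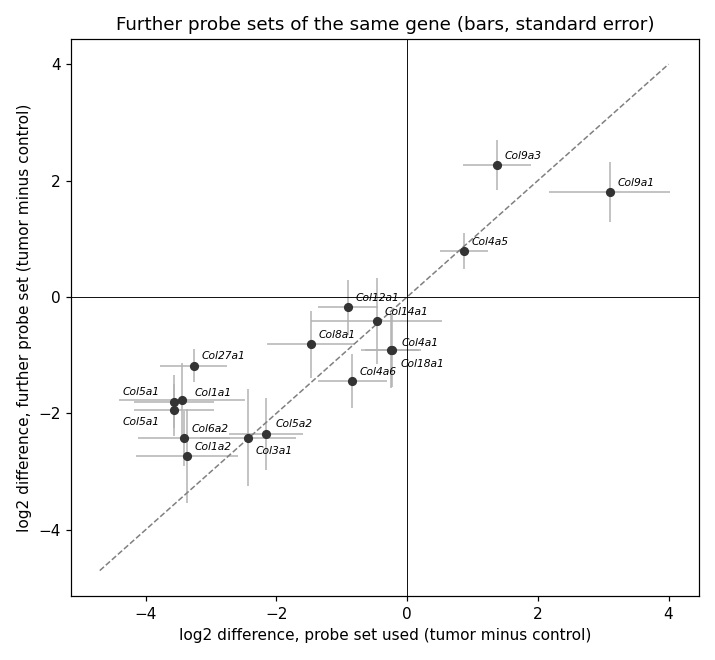
Log2 difference (tumor minus control) of the 17 further probe sets against that of the probe set used for the same gene, with standard errors; the dashed line marks equal differences. All 17 points share the sign of the probe set used, and *Col9a3* lies above the line at 2.27 against 1.38.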

How the data were processed

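Arrays of the Affymetrix mouse type were read for 3 tumors and 3 control glands, with a single array for each. The intensity values deposited by the authors are MAS 5.0 signals (version unknown here), with every array scaled to a common target of 500. The number of arrays limits the precision. The array annotation gave gene names. Intensities under 50 were raised to 50 and converted to log2. The filter kept probe sets reaching 100 on 3 arrays or more, and the groups were compared in limma 3.58.1 (R 4.3.3, functions *lmFit* and *eBayes*) with no covariate. Promoter windows and start sites came from RefSeq (GRCm38.p6) and covered 33 of the 42 collagen genes. Motifs were searched as exact letters on both strands.

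The members, classes and lists of pathway and marker genes were chosen with earlier results of these data known, so counts and medians of lists are descriptions. The text describes every collagen gene that passed the filter, names of each pathway list up to 4 called genes in each direction and the 2 furthest from passing, and names few marker genes. The cartilage markers, *Sox10*, *Cdh19*, *Mbp* and the markers of pericytes and smooth muscle were named after their values were seen. The floor was varied to 16 and to 100 or replaced by adding 50 before log2, the scaling was replaced by quantile normalization or equal array medians, and the filter was left out or raised to 200. Further fits used a variance trend, a replicate block, the mean over the probe sets of a gene, and each array left out in turn. Another left out the probe sets whose names end in _s_at, _x_at or _a_at. The methods' t-test was run on linear intensities with unequal variances (statistic of at least 4.5 in size, ratio of means of at least 2). The steps were tested on simulated data.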

Additional observations from a re-analysis of the deposited data

How the results depend on the processing

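The 11 lower and 2 higher collagens became 4 and 1 with no filter, where 42 collagens were tested and 8.6% and 9.36% of all 18193 genes were called, fibrillar genes among the lower ones 2 and type VI genes 1, and the median over the collagens was −0.24. The methods' t-test called 2 lower (both fibrillar, *Col1a2* and *Col27a1*) and 0 higher collagens at its own threshold, and 0 lower and 0 higher after Benjamini-Hochberg, with 0 in the basement membrane and type VI classes both times. Of all 12518 genes it called 920 lower and 685 higher at its own threshold (7.35% and 5.47%), and 73 and 67 after Benjamini-Hochberg. At an unadjusted p under 0.05 this t-test had 4 lower and 1 higher collagens. The share of all genes there was not counted, so these counts cannot be set against a background. The 11 and 2 of limma are calls at an adjusted p, so the thresholds differ. The higher collagens numbered 1 with a floor of 16 and 4 with equal array medians, where 15.6% and 24.0% of all genes were higher. Equal array medians moved the median of all genes by 0.24.

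Samples of the 2 groups share replicate numbers, but samples with the same number did not deviate together (correlations −0.22, 0.02 and 0.04). A fit with a replicate block called 7 lower collagens, of them 3 fibrillar, where 14.9% of all genes were lower.

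Leaving out 1 array at a time gave 5 to 14 lower collagens, 1 to 2 higher ones, 1 to 7 lower fibrillar genes and 1 to 2 lower basement membrane genes, with the median of the latter from −0.77 to 0.00279. Over these fits the log2 difference ran from −1.41 to 0.58 for *Col14a1*, from −0.77 to 0.0467 for *Col18a1*, from −0.62 to 0.0569 for *Col4a1*, from −0.14 to 0.53 for *Col4a4*, from −0.71 to 0.56 for *Col6a4* and from −0.0451 to 0.74 for *Col7a1*, and none of these 6 was called in any fit that tested it. *Col6a4* was tested in 3 of these fits, since it failed the filter without control gland 1, control gland 3 or tumor 3. *Col4a1* had 0.0079 with equal array medians. *Col6a4* had 0.0161 with a floor of 16, 0.0177 with a floor of 100, 0.0160 with log2 of the intensity plus 50, 0.10 after quantile normalization and 0.20 with equal array medians. The cause of these changes was not tested. The 14 collagens below the filter were not tested in the main fit, and no difference is given for them.

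*Col11a1*, *Col15a1*, *Col27a1* and *Col6a1* were called in each of the 17 limma alternatives. *Col9a3* was called as higher in 5 of them and *Col4a5* in 1, equal array medians (adjusted p = 0.0259 from limma).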

Other observations

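Several collagen genes lie in close pairs. Among genes that are neighbors in RefSeq, *Col6a1* and *Col6a2* on chromosome 10 and *Col3a1* and *Col5a2* on chromosome 1 were both lower, with log2 differences of −3.42 and −3.41, and of −2.43 and −2.16. *Col9a1*, which was higher (3.10), lies beside *Col19a1* on chromosome 1, which did not pass the filter and was at most 109.2.

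Short motifs in the promoter windows of the 33 collagen genes that have one, searched on both strands, were counted beside all 27025 genes. GGGCGG, the GC box, was in the windows of 21 collagens (63.64%), against 38.2% of all genes, and TATAAA, the TATA box, in 5 (15.15%) against 15.67%. CTTTGAA, a form of the core that TCF and LEF factors of Wnt signaling bind, was in 4 (12.12%) against 5.928%. These were *Col13a1*, *Col15a1*, *Col6a2* and *Col9a1*, of which *Col15a1* and *Col6a2* fell and *Col9a1* rose. Other forms of this core were not searched. ACAATG, a SOX motif, was in 0 of the 33 against 14.29% of all genes. These are counts of letters in windows of 300 bases and were not tested.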
